A study of Mus musculus with 12 samples.

Results

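Tauro-β-muricholic acid (Tβ-MCA) was compared with its vehicle, PBS, in mouse neutrophils by mRNA sequencing. The comparison used 6 of the 12 samples of the series, namely PBS replicates 3, 5 and 6 and Tβ-MCA replicates 3, 4 and 5, chosen by their labels, and described all genes. The cells were wild-type neutrophils from bone marrow, kept for 24 h in RPMI medium with 10% FBS in every group. The study's methods describe its mice as female C57BL/6 animals aged 4 to 6 weeks, and neither source gives the number of mice behind a sample or states whether marrow was pooled, so that p-values measured the spread between these samples, which may be technical. The labels give 10 μM for Tβ-MCA whereas the methods give 200 μM, and the dose cannot be settled from the counts. The other 6 samples, treated with taurocholic acid (TCA) or glycocholic acid (GCA) at 200 μM, entered only the estimate of the spread, unless stated otherwise.

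Neutrophils leave the marrow with most of their effector proteins already packed in granules, which are made in sequence during maturation. Azurophil granules carry myeloperoxidase and serine proteases, specific granules carry lactoferrin and antimicrobial peptides, and gelatinase granules and secretory vesicles carry proteases and receptors that reach the surface first. Migration starts when chemoattractants bind G protein-coupled receptors, continues through selectins and integrins, and is driven by small GTPases and actin. Energy comes mainly from glycolysis, and the C/EBP, PU.1 and GFI1 factors guide the lineage. Tβ-MCA is a taurine-conjugated bile acid of rodents, known as an antagonist of the nuclear receptor FXR.

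The 6 libraries held 32757389 to 37175737 counts on genes, with 0.381% to 0.492% of counts on mitochondrial genes, and 3 counts in a library were taken as the floor of detection. This floor covers counting error only. Values below are counts scaled to library size after TMM normalization (CPM), listed in the order PBS replicates 3, 5 and 6, then Tβ-MCA replicates 3, 4 and 5. The cells carried the markers of their label: the 20 neutrophil markers, such as S100a8, S100a9 and Csf3r, summed to 54078 to 66328 CPM with PBS and to 44105 to 49641 CPM with Tβ-MCA. Of these 20 genes, 17 had lower fitted values with Tβ-MCA. As lower genes, 5 passed the test over all samples and 11 passed without Tβ-MCA replicate 5. The 18 monocyte and macrophage markers summed to 3907, 3530 and 3528 CPM with PBS and to 730, 948 and 2793 CPM with Tβ-MCA. All 18 had lower fitted values with Tβ-MCA, and the sum was 2471 to 4023 CPM in the 6 samples with TCA or GCA. Of these 18 genes, 1 passed the test over all samples and 13 passed without Tβ-MCA replicate 5. The 10 eosinophil markers summed to 170 to 303 CPM with PBS and 67.0 to 155 CPM with Tβ-MCA, and the 10 basophil and mast cell markers in the table to 225 to 299 and 142 to 191 CPM. Dendritic cell markers summed to 88.4 to 94.7 and 54.6 to 79.6 CPM, B cell markers to 48.0 to 65.6 and 44.1 to 49.2 CPM, T and NK cell markers to 10.1 to 14.7 and 12.1 to 18.8 CPM, and erythroid markers to 2.61 to 4.34 and 2.99 to 4.10 CPM. The 18 neutrophil precursor and cell cycle markers summed to 3830 to 4443 CPM with PBS and 3983 to 4267 CPM with Tβ-MCA, with overlapping groups. Of the 10 tested T and NK cell markers, 7 had lower fitted values with Tβ-MCA, and the only called one, Il7r, was higher. In the 6 samples with TCA or GCA, Il7r was at 7.01 to 12.1 CPM and the T and NK sum at 10.7 to 15.8 CPM. There Hdc, called lower with Tβ-MCA, was at 129 to 190 CPM and the basophil and mast cell sum at 179 to 282 CPM. The defining T cell gene Cd3e was at most at 0.299 CPM. In bulk samples, fewer cells of a type and less RNA per cell cannot be told apart, and the part of other cells in the results was not tested.

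Tβ-MCA raised 745 genes and lowered 533 of the 16761 genes tested at an adjusted p under 0.05 (quasi-likelihood test in edgeR, p-values adjusted by the Benjamini-Hochberg method), which is 4.44% and 3.18% of the genes. Most of these changes were small, with a median of 1.42-fold, and 168 of the 1278 genes changed by at least 2-fold. The study's methods name cutoffs of 0.05 for p and 2 for the fold change. With unadjusted p from the same edgeR fit, 494 genes passed these cutoffs, or 2.95%. The methods also describe DESeq2 with Benjamini-Hochberg adjustment and do not say whether the p of the cutoff was adjusted. Replicate 5 of Tβ-MCA stood apart from the other two: in 1194 of the 1278 genes it was the Tβ-MCA sample nearest to the PBS mean, although it lay outside the range of PBS in 1260. Without it, 1459 of 17131 genes were higher (8.52%) and 1617 were lower (9.44%), and 1270 of the 1278 genes were called again in the same direction, which is 99.4% of one set and 41.3% of the other. The adjusted count also rested on the remaining samples. It fell to 0 when PBS replicate 3 or 5 or Tβ-MCA replicate 3 or 4 was left out, with 3599, 3471, 3008 and 2875 genes at an unadjusted p under 0.05, and to 168 without PBS replicate 6. Gene groups are therefore given with and without Tβ-MCA replicate 5, and the word called refers to the adjusted p. Separation of the groups in a called gene mostly follows from the call. Statements below that called genes did not overlap describe their values and are no further support. The share of such genes among all genes tested is not given here.

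The leading genes were those of lowest p among called genes whose groups did not overlap, so that their separation follows from the choice. Replicate 5 was the Tβ-MCA sample nearest to the PBS mean in all of them. Among the 10 leading higher genes, Idua (GRCm38 chr5:108660331-108684557), which encodes the lysosomal enzyme α-L-iduronidase, was at 28.9, 32.5 and 31.6 CPM with PBS and at 51.1, 54.5 and 41.3 CPM with Tβ-MCA, a log2 fold change of 0.66 (SE 0.10, adjusted p = 0.0206). Its exons overlap Dgkq and Slc26a1 on the other strand, and reads of such pairs cannot be told apart if the counting ignored the strand, which is not stated. Thbd, the thrombin receptor thrombomodulin (chr2:148404466-148408188), was at 5.65, 5.50 and 6.45 CPM and at 16.2, 13.9 and 9.48 CPM (log2 fold change 1.17, SE 0.19, adjusted p = 0.0206). In the 6 samples with TCA or GCA, Idua was at 33.1 to 42.5 CPM and Thbd at 5.55 to 9.08 CPM. For Idua these values were above every PBS sample, and Tβ-MCA replicate 5 lay within their range. The rest of the 10 were Sbsn, Wdr7, Mapkbp1, Pmm1, an enzyme of mannose metabolism, Entpd6, a nucleoside diphosphatase, Manba, a lysosomal mannosidase, and Rxra and Pde7b, which are described with their groups. Their log2 fold changes lay between 0.55 and 1.17.

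Among the 10 leading lower genes, Ly6i (chr15:74979534-74983430), a member of the Ly6 family of surface proteins, was at 4.70, 3.80 and 3.83 CPM with PBS and at 1.59, 1.40 and 2.30 CPM with Tβ-MCA (log2 fold change -1.22, SE 0.19, adjusted p = 0.0206). Ly6g itself, the surface antigen that marks mouse neutrophils, was at 21.4, 18.0 and 17.8 CPM and at 7.54, 8.32 and 12.9 CPM (log2 fold change -0.99, SE 0.18, adjusted p = 0.0208). All 3 treated samples were below all PBS samples for Ly6g. Both genes have near-identical relatives in the Ly6 cluster, so that the split of reads among them is uncertain. Cd9, a tetraspanin (chr6:125460266-125494791), fell from 50.5, 57.4 and 55.0 CPM to 34.2, 36.4 and 44.0 CPM. The 6 samples with TCA or GCA held 2.14 to 3.07 CPM of Ly6i, below every PBS sample. They held 11.7 to 19.6 CPM of Ly6g and 46.4 to 52.2 CPM of Cd9. Replicate 5 of Tβ-MCA lay within these ranges for Ly6i and Ly6g. The paired receptors Pilrb1 and Pilrb2, which are close paralogs, had log2 fold changes of -0.38 and -0.44, and Pdia4, a disulfide isomerase of the endoplasmic reticulum, -0.48. Tlcd2 (-0.72) shares exon sequence with Mir22hg on the same strand. Other genes named here also have exons that overlap another gene on the other strand, among them Ncf1 (Gtf2ird2), Hvcn1 (Tctn1), Arpc1b (Pdap1), Ddit3 (Mars), Hexa (Tmem202), Plin4 (Hdgfrp2), Glul (Teddm2), Prtn3 (Plppr3), Cebpb (Tmem189), Lamp1 (Grtp1) and Pdia6 (Atp6v1c2). For Cd9, Pilrb1, Pilrb2, Mapkbp1, Entpd6, Npc1, Eci2, Bcat2, Pnp, Keap1, Slco2b1, Mxi1, Etv6, Tef, Klf7, Bhlhe40, Mlxip, Mpo, Cebpa, Gfi1, Hif1a, Slc2a1, Arsb and Hsp90b1 the overlapping genes are predicted or unnamed ones. On the same strand, exons are shared by Tm7sf2 (Vps51), Adora3 (Tmigd3), Manf (Rbm15b), Sbsn (RP24-63G4.14) and Pkm (RP23-320D23.6), and by Pdia4, Glul, Pla2g4b, Actg1, Trpm2, Arrb2, Anxa3, Smad5, Itgam and Hsp90b1 with microRNA, predicted or unnamed genes. The remaining 4 leading genes were Tcp11l2, Platr7, RP23-392I13.15 and Hif3a.

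**Figure D1:**
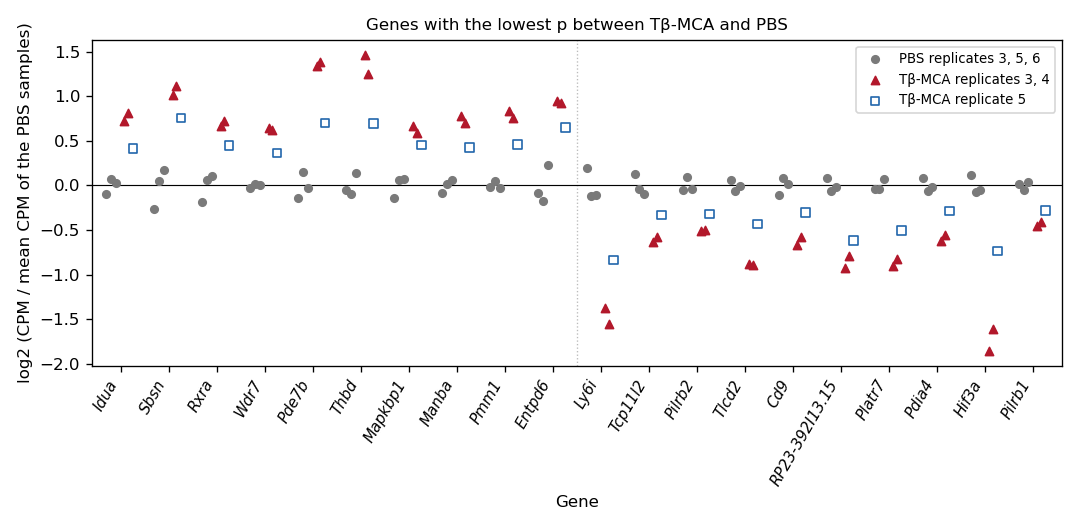
Log2 ratio of each sample's CPM to the mean CPM of the PBS samples, for the 10 higher (left) and 10 lower (right) genes with the lowest p. Grey points are PBS replicates 3, 5 and 6, red triangles Tβ-MCA replicates 3 and 4, and blue open squares Tβ-MCA replicate 5, which lies on the side of the other 2 treated samples but nearer to PBS in every gene shown (the groups do not overlap by the choice of the genes).

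Because Idua and Manba led the higher genes, a list of 37 genes of lysosomal enzymes and membrane proteins was written after their values had been seen, and its count is a description. Of these 37 genes, 10 were higher and 1, Galns, was lower, beside 4.44% and 3.18% of all genes tested, with a median log2 fold change of 0.24 against 0.00 over all genes tested, and without Tβ-MCA replicate 5 12 were higher and 2 lower. Sgsh, the heparan sulfate sulfamidase (chr11:119343425-119355536), was at 19.1, 21.8 and 21.8 CPM with PBS and 55.7, 48.8 and 31.3 CPM with Tβ-MCA (log2 fold change 1.11, SE 0.22, adjusted p = 0.0238), though its exons overlap Card14 on the other strand. Naglu, which acts on the same heparan sulfate chain (chr11:101070012-101077672), was at 9.90, 11.5 and 10.2 CPM and at 20.4, 19.1 and 16.1 CPM (log2 fold change 0.81, SE 0.14, adjusted p = 0.0206). Mcoln1, the calcium channel of the lysosomal membrane (chr8:3500457-3515232), was at 83.9, 94.9 and 92.8 CPM and at 143, 144 and 107 CPM (log2 fold change 0.54, SE 0.10, adjusted p = 0.0208). Every Tβ-MCA value lay above every PBS value for these 3 genes. The 6 samples with TCA or GCA were at 19.0 to 35.1 CPM for Sgsh, 10.2 to 15.9 CPM for Naglu and 89.3 to 111 CPM for Mcoln1. Replicate 5 of Tβ-MCA lay within these ranges for Sgsh and Mcoln1. Neu1, Hexa, Arsb and Aga, which act on glycans and glycoproteins, were among the other genes called higher. Lamp1, a major membrane protein of lysosomes (log2 fold change 0.19, adjusted p = 0.234) and the ceramidase Asah1 (-0.00, 0.993) did not pass, nor did Tfeb (0.02, 0.872), a regulator of lysosomal genes.

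The hexamer CACGTG is the E-box read by basic helix-loop-helix factors such as MYC, MAX, TFEB and BHLHE40, several of which are described with the transcription factors. It was looked for in RefSeq promoters (GRCm38.p6, 250 bases before to 50 after each start, matched by symbol). The hexamer reads the same on both strands. It stood in 8.09% of 27025 promoters, in 11.3% of the 10369 tested genes with a promoter, in 17.7% of 543 higher genes and in 11.02% of 363 lower genes. Without Tβ-MCA replicate 5 the shares were 15.9% of 1053 higher and 11.6% of 1135 lower genes. In the lysosomal list the hexamer stood in 9 of 29 genes with a promoter (31.0%), whatever their result. Among those called higher it stood in 3 of 8 (37.5%). These shares are descriptions, and a match is not evidence of binding. The windows below, each of 30 bases read 5′ to 3′ on the strand of the gene with the hexamer in capitals, show the matches in the lysosomal genes Naglu, Sgsh and Mcoln1 and in Tef, a transcription factor gene that was also higher. They lie at chr11:101070009-101070038 (+) for Naglu, chr11:119355522-119355551 (-) for Sgsh, chr8:3500436-3500465 and chr8:3500462-3500491 (+) for Mcoln1, and chr15:81802534-81802563 and chr15:81811264-81811293 (+) for the starts of Tef.
Naglu: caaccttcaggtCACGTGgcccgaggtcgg
Sgsh: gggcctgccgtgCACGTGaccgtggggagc
Mcoln1, first: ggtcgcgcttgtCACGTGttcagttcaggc
Mcoln1, second: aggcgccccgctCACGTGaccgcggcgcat
Tef, first start: gtgctgtggctcCACGTGctgcagctggca
Tef, second start: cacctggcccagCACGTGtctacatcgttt
The hexamer was not in the promoter windows of Idua, Manba, Neu1, Rxra, Nr1d1, Per3 or Dbp, which were also called higher.

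Granule genes were lower more often than higher. Of 149 genes in 5 granule lists, 135 were tested, of which 8 were higher and 15 (11.1%, against 3.18% of all genes) were lower, with a median log2 fold change of -0.09. Without Tβ-MCA replicate 5, 16 of 136 were higher and 37 (27.2%, against 9.44%) were lower. The monocyte marker sum was lower in the same samples, and its part in these counts was not tested. When the list genes that are also markers of other cells were left out, a choice made after seeing the data, 36 of 134 were lower without replicate 5. This left out few genes, and genes shared with monocytes, such as Lyz2, stayed in, so the count cannot show the part of monocytes.

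Genes of azurophil proteins split by sample. Mpo, which encodes myeloperoxidase (chr11:87793581-87804413), was at 209, 195 and 206 CPM with PBS and at 32.3, 44.5 and 154 CPM with Tβ-MCA. Elane, neutrophil elastase (chr10:79886312-79888216), was at 21.8, 27.8 and 25.9 CPM and at 2.72, 5.94 and 19.2 CPM. The serine protease cathepsin G, Ctsg (chr14:56099881-56102574), was at 18.3, 18.8 and 18.3 CPM and at 4.13, 5.59 and 12.7 CPM. Replicate 5 lay below PBS and the other 2 treated samples lay far lower, so the groups did not overlap, but with replicate 5 none of these genes passed the test. The log2 fold changes over all samples were -1.40 (SE 0.52, adjusted p = 0.137) for Mpo, -1.43 (SE 0.56, 0.16) for Elane and -1.30 (SE 0.35, 0.0556) for Ctsg. Without replicate 5 they were -2.40 (adjusted p = 6.2e-05), -2.53 (0.00064) and -1.92 (6.2e-05), and Prtn3, proteinase 3, was at -1.16 (0.00081). The 6 samples with TCA or GCA held 131 to 205 CPM of Mpo and 17.4 to 26.3 CPM of Elane.

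Lysozyme and the protease that activates the azurophil enzymes were called with all samples. Lyz2 (chr10:117277334-117282274), which encodes lysozyme and is also abundant in monocytes, fell from 4811, 4547 and 4322 CPM to 2185, 2103 and 3294 CPM (log2 fold change -0.85, SE 0.17, adjusted p = 0.0219). Its paralog Lyz1, with which it can share reads, had a log2 fold change of -1.02. Ctsc, the dipeptidyl peptidase that processes elastase and cathepsin G, was at 25.7, 24.2 and 25.2 CPM and at 11.6, 9.99 and 19.5 CPM (log2 fold change -0.87, SE 0.20, adjusted p = 0.0307). Serpinb1a, an inhibitor of these proteases, fell with them (-0.89, 0.0353). Each of these genes was lower in all 3 treated samples than in any PBS sample. The list of 24 tested azurophil genes held 4 lower and 2 higher genes, the latter including the lysosomal hydrolase Hexa, and without replicate 5 it held 8 lower and 5 higher.

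Among 28 tested genes of specific granule proteins, 6 were lower and 1, Chil1, a chitinase-like protein, was higher (median log2 fold change -0.28), and without replicate 5 the counts were 10 and 2 of 29. Camp, the precursor of the antimicrobial peptide cathelicidin, was at 716, 505 and 468 CPM with PBS and at 217, 198 and 350 CPM with Tβ-MCA (log2 fold change -1.14, SE 0.28, adjusted p = 0.0417). Hp, haptoglobin, was at 1481, 1469 and 1387 CPM and at 957, 1024 and 1218 CPM (-0.44, SE 0.09, 0.0208). Lcn2, which binds bacterial siderophores, showed a smaller change (-0.29, SE 0.08, 0.0404), and the chitinase-like Chil3 lay between (-0.46, SE 0.12, 0.035). PBS replicate 3 was the highest of the 6 samples for Camp, Hp, Lcn2 and Chil3. Ltf, lactoferrin, was at 5385, 3597 and 3562 CPM and at 2264, 1934 and 2697 CPM, with no overlap, but did not pass (-0.86, SE 0.26, 0.0743), nor did the collagenase Mmp8 (-0.31, SE 0.09, 0.058).

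Gelatinase granule and secretory vesicle genes had the lowest median of the 5 lists, -0.44 over 28 tested genes, of which 3 were lower and 0 were higher by edgeR's adjusted p. Without replicate 5 the median was -0.73, with 15 lower and 1 higher. Mmp9, the gelatinase that names the granule (chr2:164940780-164955850), was at 763, 648 and 631 CPM and at 361, 381 and 578 CPM (-0.63, SE 0.17, 0.0481). Anxa3, an annexin of granule membranes, was at 166, 157 and 167 CPM and at 84.1, 91.7 and 136 CPM (-0.65, SE 0.15, 0.0307). Replicate 5 lay nearer to PBS than to the other 2 treated samples in both.

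The machinery of granule release and of neutrophil extracellular traps (NETs) had 4 genes higher and 2 lower of 49 tested and a median log2 fold change of -0.00 (7 and 3 without replicate 5). Dnase1l3, a secreted DNase that degrades chromatin, had the largest fitted change over all samples of the granule genes named here: 14, 20 and 8 counts in the PBS libraries and 82, 98 and 44 counts in those of Tβ-MCA, that is 0.402, 0.589 and 0.216 CPM against 2.45, 2.65 and 1.18 CPM (log2 fold change 2.38, SE 0.41, adjusted p = 0.0206). It was at 0.541 to 1.32 CPM in the TCA and GCA samples. Stx6, a syntaxin of membrane fusion, was at 36.3, 36.7 and 38.6 CPM and rose to 52.4, 51.1 and 40.8 CPM (0.37, SE 0.09, 0.0305), whereas Stxbp2, which binds syntaxins in leukocyte degranulation, fell (-0.26, SE 0.07, 0.0324). Padi4, which citrullinates histones during NET formation, was at 377, 352 and 351 CPM and at 368, 331 and 354 CPM, with overlapping groups (-0.04, SE 0.08, 0.822). Of 9 tested genes of the NADPH oxidase, which makes superoxide, 1 was lower and 1 higher (3 and 1 without replicate 5): the cytosolic subunit Ncf1 fell (-0.34, SE 0.08, 0.0251), the proton channel Hvcn1 that sustains the oxidase rose (0.39, SE 0.11, 0.0478), and the catalytic subunit Cybb did not pass (-0.21, SE 0.08, 0.114).

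**Figure D2:**
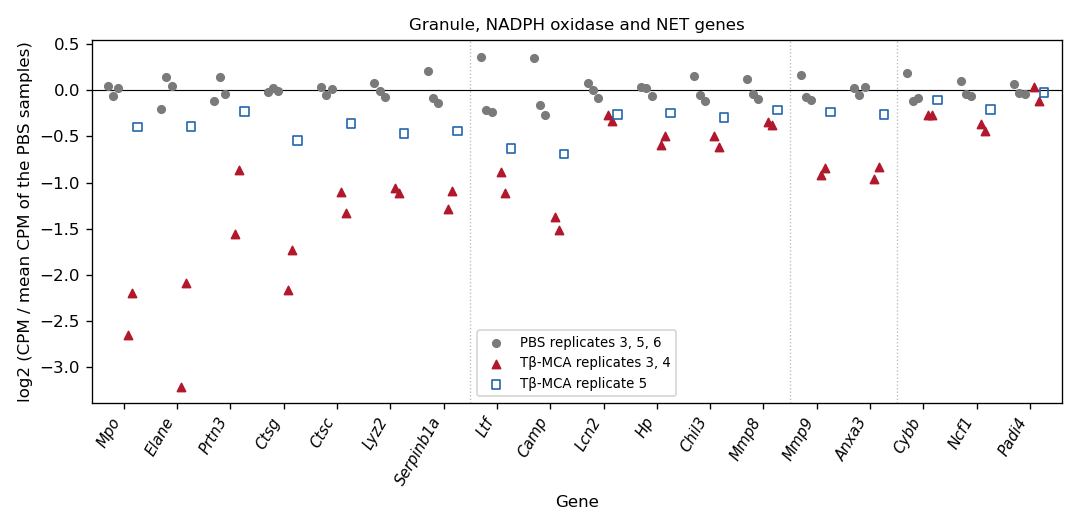
Log2 ratio of each sample's CPM to the PBS mean for azurophil, specific and gelatinase granule genes and, after the last dotted line, NADPH oxidase and NET genes. Symbols mark PBS replicates (grey points), Tβ-MCA replicates 3 and 4 (red triangles) and Tβ-MCA replicate 5 (blue open squares). The widest gap between replicate 5 and the other 2 treated samples is in Mpo and Elane, and Padi4 shows no separation.

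Genes of migration were lower more often than higher as well. Of 255 listed genes, 233 were tested, 9 were higher and 20 (8.58%, against 3.18% of all genes) were lower, with a median log2 fold change of -0.15. Without Tβ-MCA replicate 5, 15 of 234 were higher and 68 (29.1%, against 9.44%) were lower. Several of these genes, such as Fpr2 and Ccr1, are used by monocytes too, and the part of the lower monocyte marker sum was not tested. Without the list genes that are also markers of other cells, 66 of 230 were lower when replicate 5 was left out. Few genes were removed in this way, and Fpr2 and Ccr1 stayed in, so this count cannot show the part of monocytes either.

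Chemoattractant receptors numbered 38 tested, with 5 lower and 1 higher (16 and 3 without replicate 5). Fpr2, a receptor for formylated peptides of bacteria and mitochondria (chr17:17887824-17893952), was at 77.5, 76.1 and 69.1 CPM with PBS and at 34.4, 43.7 and 56.1 CPM with Tβ-MCA (log2 fold change -0.73, SE 0.15, adjusted p = 0.0235), and shares exon sequence with Fpr3, which was also lower (-0.69). P2rx1, an ATP-gated channel, was at 6.11, 5.38 and 5.07 CPM and at 2.27, 2.81 and 4.12 CPM (-0.84, SE 0.18, 0.0211), and the adenosine receptor Adora3 at 2.81, 1.53 and 2.18 CPM and at 0.718, 0.918 and 1.04 CPM (-1.28, SE 0.26, 0.0208). Every treated sample was below every PBS sample in these receptors. Fpr1, the high-affinity formyl peptide receptor, was at 24.8, 26.2 and 24.9 CPM and at 7.84, 12.2 and 19.6 CPM, which did not pass with replicate 5 (-0.94, SE 0.27, 0.0631) and passed without it (-1.34, 0.0006). Cxcr2, the receptor for neutrophil chemokines (chr1:74153989-74161246), was at 403, 448 and 404 CPM and at 281, 349 and 379 CPM (-0.31, SE 0.10, 0.0618, and -0.41, 0.0087 without replicate 5), and C5ar1 for complement C5a was similar in size (-0.29, 0.0603). Cxcr4, which holds neutrophils in the marrow, was at 59.0, 61.9 and 58.0 CPM and at 56.5, 63.4 and 59.5 CPM, with overlapping groups (0.00, SE 0.07, 0.977). Cxcr3 was the receptor called higher (0.78, SE 0.22, 0.0496).

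Of 25 listed chemokines only 14 passed the filter on low counts, and their median log2 fold change was -1.04, with 3 lower and 0 higher by edgeR's adjusted p. Without replicate 5, 8 of 15 were lower and 0 higher. Ccl3 (chr11:83647844-83649355), which attracts leukocytes, was at 92.1, 113 and 93.6 CPM and at 63.9, 65.5 and 79.6 CPM (-0.51, SE 0.10, 0.0208), and the related Ccl4 changed by -0.88 (SE 0.23, 0.0358). Cxcl1 was low, at 0.809 to 1.18 CPM with PBS and 0.299 to 0.486 CPM with Tβ-MCA, and its call was lost without replicate 5 (adjusted p = 0.0484 and 0.0676). The CXCR2 ligand Cxcl2 spread widely within both groups, at 40.9, 68.6 and 57.9 CPM and at 9.12, 20.2 and 34.6 CPM, and did not pass with replicate 5 (-1.38, SE 0.44, 0.0932) but passed without it (-1.92, 0.0148).

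Of 46 tested adhesion genes, 3 were higher and 3 lower over all samples, and 4 were higher and 12 lower without replicate 5. Cd82, a tetraspanin that organizes adhesion receptors, was at 238, 248 and 230 CPM and rose to 311, 322 and 262 CPM (0.32, SE 0.08, 0.0308), and the adhesion molecule Alcam rose slightly (0.21, SE 0.06, 0.0452). Itgal, the α chain of LFA-1, fell from 307, 271 and 250 CPM to 207, 194 and 250 CPM (-0.35, SE 0.10, 0.0424), and Itgb7 also fell (-0.57, 0.035). Replicate 5 was level with PBS replicate 6 for Itgal, so that the groups overlapped. The Mac-1 chains Itgam (-0.11, SE 0.08, 0.44) and Itgb2 (-0.10, SE 0.06, 0.352) did not pass.

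Among 82 tested genes of small GTPases, actin assembly and myosin, 5 were lower and 1, the cytoplasmic γ-actin Actg1, was higher (0.24, SE 0.07, 0.0395). Without replicate 5, 20 were lower and 2 higher. Vasp, which elongates actin filaments at the leading edge, was at 758, 685 and 650 CPM and at 455, 431 and 590 CPM (-0.50, SE 0.12, 0.031). Rnd1, an atypical small GTPase that reduces contractility, was at 22.6, 19.7 and 17.0 CPM and at 8.05, 9.72 and 15.3 CPM (-0.84, SE 0.21, 0.0331). Arpc1b, a subunit of the Arp2/3 complex, changed less (-0.33, SE 0.09, 0.0411), and Rac2, the main Rac of neutrophils, was at 258 to 281 CPM with PBS and 259 to 279 CPM with Tβ-MCA (-0.02, SE 0.06, 0.911).

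Signalling genes behind the receptors gave 4 higher and 4 lower of 53 tested, and 6 higher and 12 lower without replicate 5. The higher genes were Trpm2 and 3 genes of cyclic AMP enzymes: the adenylyl cyclase Adcy9 (0.63, SE 0.12, 0.0206), the protein kinase A subunit Prkacb (0.59, SE 0.10, 0.0206) and the phosphodiesterase Pde7b (1.17, SE 0.19, 0.0206). Other genes of such enzymes in the list, namely Adcy7, Prkaca, Pde4a, Pde4b, Pde4d and Pde7a, were not called. Adcy9 was at 38.5, 33.0 and 35.8 CPM and at 66.2, 53.5 and 47.0 CPM, and Prkacb at 33.0, 31.2 and 39.2 CPM and at 59.0, 51.1 and 46.0 CPM. Trpm2, a calcium channel opened by ADP-ribose (chr10:77907722-77970563), was at 939, 1213 and 1249 CPM and at 2199, 2116 and 1458 CPM (0.76, SE 0.16, 0.0239), while Cd38, which makes ADP-ribose from NAD, was lower (-0.93). All Tβ-MCA samples lay above PBS for Adcy9, Prkacb and Trpm2. The 6 samples with TCA or GCA were at 37.6 to 47.9 CPM for Adcy9, 34.2 to 43.3 CPM for Prkacb and 1134 to 1528 CPM for Trpm2. Replicate 5 of Tβ-MCA lay within these ranges for Adcy9 and Trpm2. The lower genes included Arrb2, the β-arrestin that desensitizes chemokine receptors (-0.40, SE 0.09, 0.0249), Plcb3, a phospholipase C (-0.43, 0.0266), and the Src family kinase Fgr (-0.33, 0.0317).

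**Figure D3:**
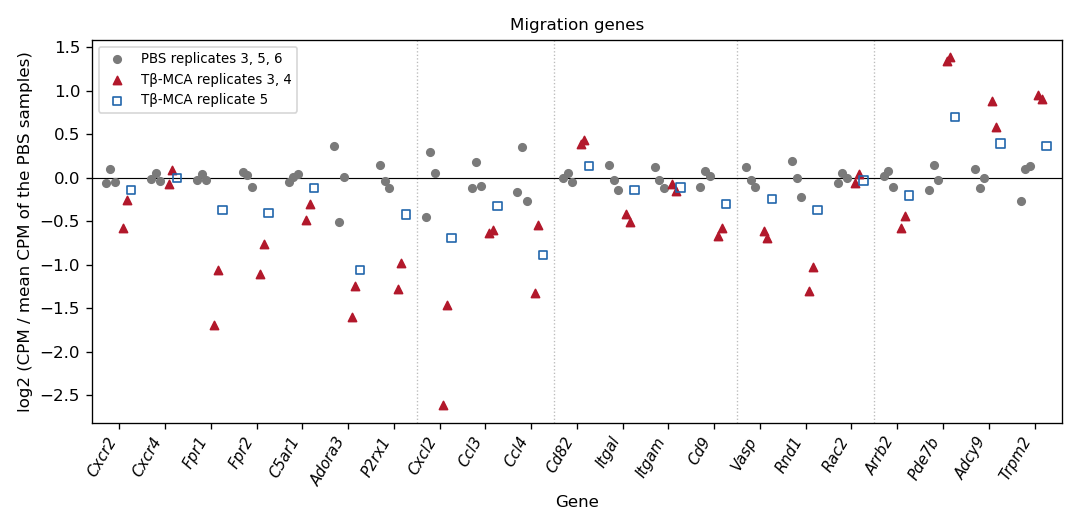
Log2 ratio of each sample's CPM to the PBS mean for chemoattractant receptors, chemokines, adhesion, actin and signalling genes, divided by dotted lines. Grey points are PBS replicates, red triangles Tβ-MCA replicates 3 and 4, and blue open squares Tβ-MCA replicate 5. Fpr1, Cxcl2 and Adora3 lie lowest, Pde7b and Trpm2 highest, and Cxcr4 and Rac2 overlap PBS.

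Metabolic genes did not move one way. Of 455 listed genes 424 were tested, 21 (4.95%) were higher and 18 (4.25%) were lower, close to the 4.44% and 3.18% of all genes, with a median log2 fold change of -0.01. Without Tβ-MCA replicate 5 the counts were 41 and 48 of 425, or 9.65% and 11.3% beside 8.52% and 9.44%.

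Glycolysis and its side paths held 4 higher and 2 lower genes of 49, and 5 higher and 9 lower without replicate 5, so that the balance turned. Pfkl, the liver-type phosphofructokinase of the committed step (chr10:77986947-78010083), was at 125, 127 and 116 CPM with PBS and at 221, 207 and 152 CPM with Tβ-MCA (log2 fold change 0.66, SE 0.13, adjusted p = 0.0211). Pdk1, which restrains pyruvate entry into mitochondria, was at 5.34, 6.53 and 5.31 CPM and at 10.5, 11.7 and 8.32 CPM (0.83, SE 0.19, 0.0251), and Pdk2 and the glycogen primer Gyg were also higher (0.71 and 0.47). Hk3, a hexokinase of myeloid cells (chr13:55005985-55021385), fell from 382, 364 and 350 CPM to 213, 243 and 318 CPM (-0.50, SE 0.12, 0.0307), although its exons overlap Unc5a on the other strand, and the pyruvate kinase gene Pkm fell slightly (-0.22, SE 0.06, 0.046). Hk2, another hexokinase, was at 133, 99.4 and 99.0 CPM and at 84.0, 67.8 and 95.4 CPM (-0.42, SE 0.15, 0.103). In the 6 samples with TCA or GCA, Pfkl was at 113 to 162 CPM, Pdk1 at 4.73 to 8.51 CPM and Hk3 at 303 to 374 CPM. Replicate 5 of Tβ-MCA lay within these ranges. The glucose transporters Slc2a1 (-0.34, 0.0535) and Slc2a3 (0.13, 0.224), the regulator Pfkfb3 (-0.20, 0.0728) and lactate dehydrogenase Ldha (-0.14, 0.168) did not pass, of which Slc2a1 and Pfkfb3, like Hk2, passed without replicate 5.

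In mitochondria, 0 of 71 tested nuclear genes of respiratory chain subunits were called by edgeR's adjusted p over all samples, and 1 was higher and 5 lower without replicate 5. Of 39 genes of the citric acid cycle and pyruvate entry, 1 was called over all samples (2 higher and 1 lower without replicate 5), the isocitrate dehydrogenase subunit Idh3a, which was at 19.8, 18.0 and 18.9 CPM and at 9.93, 11.4 and 16.1 CPM (-0.60, SE 0.15, 0.0314).

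Over all samples, the called genes in the lists for synthesis, storage and oxidation of lipids were all higher with Tβ-MCA. They were few, beside 4.44% higher and 3.18% lower over all genes tested, and the count for oxidation was near that share. The median log2 fold change was 0.05 for synthesis and 0.08 for oxidation. Of 40 genes of cholesterol and fatty acid synthesis, 4 were higher and 0 lower (6 and 0 without replicate 5): Tm7sf2, a sterol reductase, Mvd of the mevalonate pathway, and Elovl5 and Fads1, which lengthen and desaturate fatty acids. Elovl5 was at 34.6, 36.1 and 36.6 CPM and at 55.0, 65.1 and 46.7 CPM (0.64, SE 0.13, 0.0208). Of 39 genes of cholesterol efflux and lipid storage, 6 were higher and 0 lower, although the median of the list was -0.09 and, without replicate 5, 11 were lower beside 6 higher. Nceh1, which hydrolyses cholesterol esters, was at 35.2, 40.6 and 42.8 CPM and at 67.4, 71.4 and 48.5 CPM (0.66, SE 0.14, 0.0247), and Npc1, which exports cholesterol from lysosomes, at 73.0, 94.1 and 90.4 CPM and at 120, 132 and 107 CPM (0.48, SE 0.11, 0.0266). Lpin2, a phosphatidate phosphatase, and Plin4, a lipid droplet protein, were higher too (0.41 and 0.83). Of 40 genes of fatty acid oxidation and peroxisomes 2 were higher and 0 lower (7 and 1 without replicate 5), Eci2 (0.50) and Cpt1a, the carnitine palmitoyltransferase that admits fatty acids to mitochondria, which was at 41.3, 37.4 and 42.8 CPM and at 59.7, 74.7 and 51.3 CPM (0.61, SE 0.16, 0.0392). The groups did not overlap in any of the genes given here by sample. The cholesterol exporter Abca1 did not pass (0.17, SE 0.26, 0.758).

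Amino acid and nucleotide genes were mostly lower where called over all samples. Of 41 genes of amino acid, one-carbon and polyamine metabolism, 5 were lower and 1 higher, but without replicate 5 the balance turned to 4 lower and 8 higher of 42. Ass1, which makes argininosuccinate from citrulline, was at 12.7, 13.7 and 13.8 CPM and at 5.32, 7.08 and 10.1 CPM (-0.84, SE 0.18, 0.024). The amino acid transporter Slc38a2 (-0.46, SE 0.10, 0.0222), glutamine synthetase Glul (-0.37, 0.0324) and the transaminase Bcat2 (-0.47, 0.0416) were lower, and Phgdh, the first enzyme of serine synthesis, was higher (0.59, SE 0.16, 0.039). Of 42 nucleotide and NAD genes, 5 were lower and 1 higher (9 and 2 without replicate 5). These included purine salvage genes, with Pnp, purine nucleoside phosphorylase, at 57.3, 49.5 and 49.1 CPM and at 39.0, 34.6 and 39.7 CPM (-0.46, SE 0.09, 0.0206), adenosine deaminase Ada (-0.73, SE 0.17, 0.0266) and Aprt (-0.55, SE 0.13, 0.0277). Nampt, which makes NAD from nicotinamide, was the higher gene (0.35, SE 0.09, 0.029). Treated and PBS samples did not overlap for Ass1 or Pnp.

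Antioxidant genes gave 2 higher and 2 lower of 31 (2 and 4 without replicate 5). Prdx5, a peroxiredoxin (chr19:6906697-6910106), was at 985, 1012 and 965 CPM and at 629, 673 and 823 CPM (-0.48, SE 0.09, 0.0206), with exons that overlap Trmt112 on the other strand, and Mgst1 was lower by a smaller step (-0.28). The 6 samples with TCA or GCA held 806 to 963 CPM of Prdx5, below every PBS sample, and Tβ-MCA replicate 5 lay within this range. Catalase, Cat, was at 66.4, 65.7 and 67.9 CPM and at 93.5, 95.8 and 78.6 CPM (0.42, SE 0.09, 0.0211), and Keap1, the sensor of oxidative stress, changed by 0.33. Among 20 eicosanoid genes, 1 was higher and 1 lower (2 and 1 without replicate 5). Hpgd, which inactivates prostaglandins (chr8:56294585-56321043), had 30, 22 and 14 counts with PBS and 2, 4 and 4 counts with Tβ-MCA (log2 fold change -2.72, SE 0.51, adjusted p = 0.0206). The treated libraries were at or near the floor of 3 counts for Hpgd, so that the size of its change is imprecise. The phospholipase gene Pla2g4b was higher, also at low counts (1.40, SE 0.41, 0.0485).

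**Figure D4:**
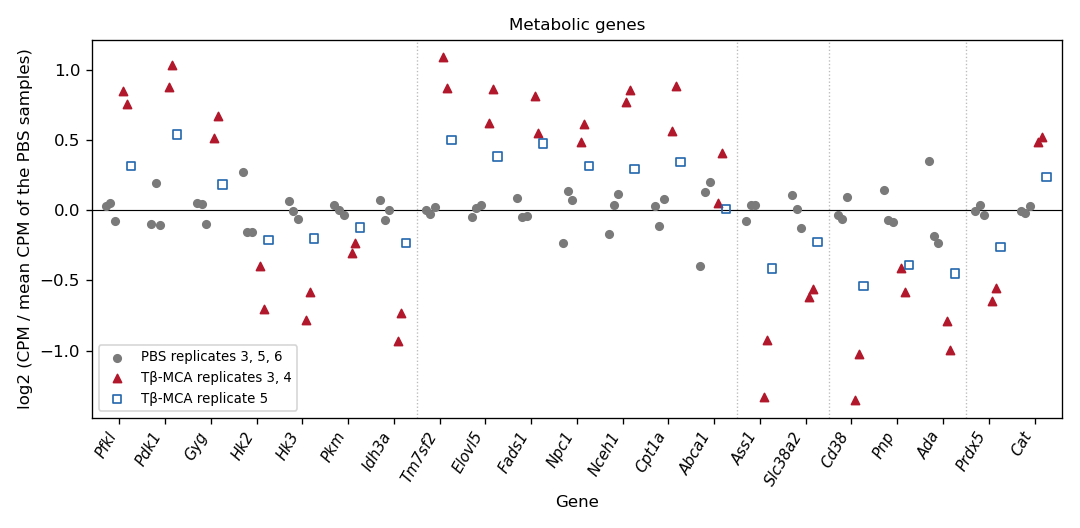
Log2 ratio of each sample's CPM to the PBS mean for genes of glucose and citric acid cycle metabolism, lipids, amino acids, nucleotides and antioxidants, divided by dotted lines. Grey points are PBS replicates, red triangles Tβ-MCA replicates 3 and 4, and blue open squares Tβ-MCA replicate 5. Pfkl and Pdk1 lie above PBS and Hk3 and Idh3a below, and replicate 5 lies nearer to PBS than the other 2 treated samples in most genes.

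The bile acid receptor genes Nr1h4 and Gpbar1 gave few or no reads. Nr1h4, the gene of FXR, had 0 counts in all 6 libraries, which allows up to 3 counts in each, and Gpbar1, the gene of the surface receptor TGR5, had 2, 2 and 4 counts with PBS and 0, 0 and 2 counts with Tβ-MCA, so that a difference was not detectable at this depth. S1pr2, a sphingosine-1-phosphate receptor that also binds conjugated bile acids, was at 5.39, 6.83 and 5.88 CPM and at 8.05, 9.10 and 7.15 CPM and did not pass with replicate 5 (0.42, SE 0.15, 0.0884) but passed without it (0.51, 0.0368). Of 13 tested bile acid receptor and transporter genes, the organic anion transporters Slco4a1 (-0.66, SE 0.17, 0.035) and Slco2b1 (-1.38, SE 0.39, 0.0453) were lower and 0 were higher by edgeR's adjusted p (3 and 1 without replicate 5). Arg1, arginase of suppressive myeloid cells, had 7, 12 and 7 counts with PBS and 3, 1 and 3 counts with Tβ-MCA and was below the filter on low counts. Nos2, the inducible nitric oxide synthase, was at 2.55, 1.77 and 1.54 CPM and at 1.44, 1.62 and 1.82 CPM, with overlapping groups (-0.26, SE 0.27, 0.601).

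Of 309 transcription factor genes 278 were tested, 13 (4.68%) were higher and 21 (7.55%) were lower, beside 4.44% and 3.18% of all genes. Without Tβ-MCA replicate 5, 32 and 60 of 280 passed, or 11.4% and 21.4% beside 8.52% and 9.44%. The median log2 fold change was -0.05 over all samples.

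Factors of the granulocyte lineage had 7 lower and 2 higher genes of 48, and 17 lower and 4 higher without replicate 5. Myc, a driver of growth and proliferation (chr15:61985391-61990374), was at 8.03, 6.03 and 4.77 CPM with PBS and at 2.93, 2.13 and 3.61 CPM with Tβ-MCA (log2 fold change -1.12, SE 0.23, adjusted p = 0.0208). Its partner Max fell (-0.32, SE 0.09, 0.0462), whereas Mxi1 and Mnt, which compete with MYC for MAX, rose (0.28, SE 0.07, 0.0317 and 0.28, SE 0.07, 0.0334). Mxi1 was at 417, 424 and 409 CPM and at 549, 522 and 447 CPM. PBS replicate 3 was highest for Myc, and no value of Myc or Mxi1 overlapped between the groups. The ETS factor Etv6 (-0.39, 0.0225) and Gata1 of erythroid, eosinophil and mast cells (-0.76, 0.0428) were also lower.

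The defining lineage factors did not pass over all samples. Cebpa, which starts granulocyte differentiation, was at 69.7, 68.4 and 64.0 CPM and at 34.9, 34.5 and 61.9 CPM, with replicate 5 just below PBS (-0.62, SE 0.20, 0.0813, and -0.96, 4.3e-05 without replicate 5). Spi1, the gene of PU.1 (-0.17, SE 0.07, 0.152), Gfi1 (-0.27, SE 0.10, 0.118) and Cebpb (-0.23, SE 0.09, 0.107) did not pass with replicate 5 and passed without it, with log2 fold changes of -0.23, -0.37 and -0.29. Cebpe, needed for specific granules, overlapped between the groups at 349, 252 and 211 CPM and 269, 207 and 237 CPM (-0.19, SE 0.20, 0.625).

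Of 28 tested nuclear receptor genes, 3 were higher and 0 lower by edgeR's adjusted p, beside 4.44% and 3.18% of all genes tested. These counts are too few to give a direction, and without replicate 5 there were 4 higher and 5 lower of 30. Rxra, the shared partner of FXR, LXR and PPAR receptors (chr2:27676440-27762957), was at 33.9, 40.2 and 41.5 CPM and at 61.1, 63.5 and 52.5 CPM (0.62, SE 0.10, 0.0206). In the 6 TCA and GCA samples it was at 39.7 to 50.4 CPM. Thra, a thyroid hormone receptor, rose from 33.4, 33.1 and 31.9 CPM to 49.2, 46.1 and 41.6 CPM (0.48, SE 0.08, 0.0206), and Nr1d1, the clock repressor REV-ERBα, which lies on the opposite strand and overlaps the exons of Thra, changed by 0.71 (SE 0.21, 0.0489). The reads of these 2 genes cannot be told apart if strand was ignored.

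Of 34 tested HIF, clock and basic helix-loop-helix genes, 2 were higher and 2 lower, and without replicate 5 there were 6 higher and 5 lower. Bhlhe40, a repressor in the clock and in immune cells (chr6:108660629-108666925), was at 59.3, 73.1 and 75.5 CPM and at 134, 134 and 97.2 CPM (0.81, SE 0.14, 0.0208), and Per3 changed by 0.66 (SE 0.17, 0.0343). The clock genes Arntl, Clock, Per1, Per2, Cry1, Cry2 and Ciart were not called over all samples. Tef and Dbp, clock-output factors listed with the ATF family, were at 4.42, 4.35 and 4.50 CPM and 10.4, 7.56 and 5.89 CPM (0.84, SE 0.20, 0.0272), and at 5.19, 6.47 and 5.82 CPM and 10.7, 10.4 and 7.44 CPM (0.71, SE 0.18, 0.034), respectively. All Tβ-MCA values were above PBS for Bhlhe40, Tef and Dbp, and Dbp overlaps the exons of Sphk2 on the other strand. The 6 samples with TCA or GCA were at 70.7 to 104 CPM for Bhlhe40, 3.29 to 5.87 CPM for Tef and 4.48 to 7.82 CPM for Dbp. Replicate 5 of Tβ-MCA lay within these ranges for Bhlhe40 and Dbp. The lower genes of the HIF and clock list were Hif3a (-1.31, SE 0.23, 0.0206) and Mlxip (-0.26, SE 0.07, 0.0382). Hif1a, a transcription factor of the response to low oxygen, did not pass over all samples (0.17, SE 0.06, 0.119).

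Among 40 AP-1, ATF and CREB genes, 5 were lower and 3 higher (8 and 4 without replicate 5). Xbp1, a factor of the unfolded protein response, was at 176, 147 and 164 CPM and at 117, 101 and 129 CPM (-0.49, SE 0.10, 0.0208), and Nfe2 (-0.42, 0.0211), Batf3 (-1.53, 0.0317) and Fosl2 (-0.44, 0.0452) were lower, while Ddit3, the stress factor CHOP, was higher (0.47, SE 0.11, 0.0257). Of 29 KLF, EGR, NR4A and SP genes, 3 were lower and 1 higher (6 and 3 without replicate 5). The immediate early gene Ier2 was at 67.6, 74.1 and 61.0 CPM and at 43.1, 48.6 and 48.4 CPM (-0.53, SE 0.11, 0.0208), Klf7 and Klf9 were lower (-0.32 and -0.36), and Klf10, induced by TGF-β, was higher (0.55, 0.0422). Ier2 was one of the genes in which replicate 5 did not stand apart. Of 30 IRF, STAT and NF-κB genes, 3 were lower and 0 higher by edgeR's adjusted p, and 7 and 5 without replicate 5. They were the NF-κB regulators Nfkbiz (-0.37, 0.0266) and Nfkbia (-0.26, 0.0347) and the osmotic stress factor Nfat5 (-0.27, 0.0342). Of 69 ETS, FOX, SMAD, E2F and other factors, 1 was lower and 2 higher, which turned to 12 lower and 6 higher without replicate 5. Smad5, which carries BMP signals, was at 21.2, 22.3 and 22.7 CPM and at 36.0, 32.2 and 27.2 CPM (0.53, SE 0.11, 0.0208), the cell cycle factor E2f1 was higher (0.37, 0.0475) and Skil, a repressor of SMAD signalling, was lower (-0.25, 0.038). Treated samples were outside the PBS range for Xbp1, Ier2 and Smad5.

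**Figure D5:**
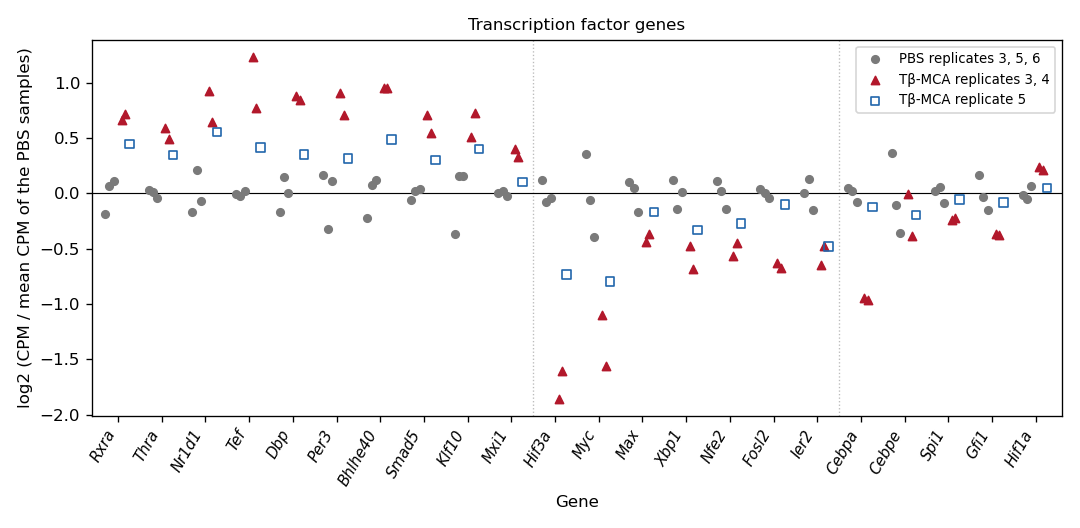
Log2 ratio of each sample's CPM to the PBS mean for transcription factor genes called higher (left of the first dotted line), called lower (middle) and lineage or oxygen-response factors (right; Hif1a last). Grey points are PBS replicates, red triangles Tβ-MCA replicates 3 and 4, and blue open squares Tβ-MCA replicate 5. Hif3a and Myc lie lowest, Bhlhe40 among the highest, and in Cebpa replicate 5 lies beside PBS, away from the other 2 treated samples.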

How the data were processed

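RNA of cultured bone marrow neutrophils was made into stranded mRNA libraries. According to the submitters' processing notes and the methods, the authors used Trimmomatic 0.36, STAR 2.5.3a and featureCounts of Subread 1.5.1 on GRCm38 (mm10). The authors deposited raw counts per gene, without normalization, and RPKM values, which are counts scaled to exon length and library size. The strand setting of the counting, and whether mates were counted apart, are not given in the sources used here.

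Counts were tested with edgeR 4.0.16 in R 4.3.3 (TMM, filterByExpr, robust quasi-likelihood) over all 12 samples, with Benjamini-Hochberg adjustment and a threshold of 0.05. This kept 16761 of 29737 genes. Replicates were not duplicates of each other. RPKM values served to set a minimum of 0.5 in the higher group for leading genes. Alternatives were limma 3.58.1, DESeq2 1.42.0, other scalings and filters, the replicate block and each sample left out. Python 3.11.15 was used for plots.

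The genes named are the 10 higher and 10 lower genes of lowest p whose groups did not overlap, excluding predicted genes, up to 4 called genes per list and direction, and a fixed set of known genes. Members and lists were chosen with earlier results of these data known. Some genes that this rule named are not reported here.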

Additional observations from a re-analysis of the deposited data

How the results depend on the processing

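No named gene that was called changed direction under any alternative, and neither did any of the 1278 genes where they were fitted. Their number depended on the setting, with 1999 genes by DESeq2, 2406 without a filter on low counts, 689 by limma on log2(RPKM + 0.1) and 0 by edgeR with only the PBS and Tβ-MCA samples fitted (3485 at an unadjusted p under 0.05). It ranged from 0 to 3076 when each sample was left out, the highest without Tβ-MCA replicate 5. At the cutoffs of the study with unadjusted p, 494 genes became 241 with at least 10 counts in every sample and 849 without a filter. They became 286 and 85 by limma with pseudocounts of 0.1 and 1, and 363 to 961 with each sample left out. Scaling by total library size gave 1013 higher and 395 lower genes (71.9% higher, against 58.3%), limma gave 69.1% and 68.2% higher with the pseudocounts of 0.1 and 1, and edgeR without the filter 46.1%. Without Tβ-MCA replicate 5, total library size gave 1885 higher and 1308 lower genes in place of 1459 and 1617. Several genes that missed the threshold with edgeR passed with DESeq2, among them Mpo (adjusted p = 0.0492), Ctsg (0.00988), Cebpa (0.00694), Fpr1 (0.0206), Cxcr2 (0.0315), Cxcl2 (0.0157) and Ltf (0.0211). Without the filter the adjusted p of Mpo was 9.5e-62 despite its spread, and that fit should be read with caution. The cause of these shifts was not tested. With the replicate number as a block, 1498 genes were called, 771 higher and 727 lower, of which 941 were among the 1278, and 32 of the 154 named called genes, such as Pfkl, Hk3 and Camp, were not called. The deviations of 15 same-numbered pairs over all groups correlated by 0.060 to 0.33 (mean 0.19), against a mean of -0.072 for 39 other pairs, and those of PBS and Tβ-MCA by 0.24 and 0.060. Not every pair was above 0.1, so the numbers were not taken to pair the samples, although 10 of 11 samples correlated best with their own number. Genes near 3 counts, such as Arg1 and Gpbar1, are limited by depth.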

Other observations

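Genes of protein folding in the endoplasmic reticulum were listed after the values of Pdia4, Xbp1 and Ddit3 had been seen, and their counts are descriptions. Of 24 genes, 6 were lower and 4 higher, beside 3.18% and 4.44% of all genes tested, with a median log2 fold change of -0.20, and without Tβ-MCA replicate 5 12 were lower and 4 higher, beside 9.44% and 8.52%. Hsp90b1, the chaperone GRP94, was at 1096, 1064 and 1075 CPM with PBS and at 662, 682 and 922 CPM with Tβ-MCA (-0.51, SE 0.11, adjusted p = 0.0211). P4hb, a disulfide isomerase, was at 371, 345 and 352 CPM and at 247, 250 and 314 CPM (-0.40, SE 0.08, 0.0208). Manf and Pdia6 were lower as well. In contrast, the chaperone Hyou1 was at 201, 204 and 207 CPM and at 351, 312 and 242 CPM (0.56, SE 0.13, 0.0314), and Ddit3, the pseudokinase gene Trib3 (0.94, SE 0.24, 0.0324) and Herpud1, of protein degradation at the endoplasmic reticulum (0.47, SE 0.13, 0.0417), were higher. Hspa5, the chaperone BiP, did not pass over all samples (-0.21, SE 0.07, 0.073), and Atf4, which lies upstream of Ddit3 and Trib3, was at 211, 217 and 194 CPM and at 197, 222 and 198 CPM (-0.01, SE 0.07, 0.931). The called genes of the list thus lay in both directions, with no overlap between the groups for Hsp90b1, P4hb or Hyou1. The 6 samples with TCA or GCA were at 876 to 1047 CPM for Hsp90b1 and 308 to 342 CPM for P4hb, below every PBS sample. They were at 179 to 258 CPM for Hyou1. Replicate 5 of Tβ-MCA lay within these ranges for all 3 genes.

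Among markers of other cell types, the monocyte chemokine receptor gene Ccr2 was at 51.2, 37.3 and 37.9 CPM with PBS and at 2.03, 2.70 and 29.2 CPM with Tβ-MCA. F13a1, the coagulation factor gene of monocytes, was at 519 to 584 CPM with PBS and 54.8 to 367 CPM with Tβ-MCA. In both genes the 3 treated samples were below PBS, with replicate 5 of Tβ-MCA the highest of the 3 for Ccr2. Neither Ccr2 nor F13a1 was called over all samples.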
